A study of Mus musculus with 12 samples.

Results

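The 9 genes described here encode the signalling chains of the B cell receptor, the kinases and the adaptor that act next to them, an inhibitory receptor of B cells and an enzyme subunit that was grouped with them. They were taken by symbol from a deposited table of 55291 symbols, and all 9 were among the 15674 genes that passed the filter on low counts. Of these, 5 (Cd79a, Cd79b, Blk, Blnk and Cd72) are counted as B-restricted members and 3 (Syk, Btk and Lyn) as members that myeloid cells share, and Pafah1b3 is kept apart because it is not part of the receptor pathway. RNA-seq counts came from 12 libraries in 4 groups of 3. Bone marrow of mice about 8 weeks old was kept for about 24 hours in alpha-MEM, and the progenitors that did not adhere were taken. Control mice and mice titled homozygous (genotype STAT3Cstopfl/fl CD4Cre) either received short-chain fatty acids (SCFA) with their drinking water or did not. STAT3C is a constitutively active form of the transcription factor STAT3, held silent by a stop cassette until Cre recombinase, here driven by the CD4 promoter and so acting mainly in T cells, removes it. The label of homozygous untreated 1 writes the genotype as R26STAT3Cstopfl/fl CD4Cre, naming the Rosa26 locus, and the other 5 homozygous libraries carry the shorter form; all 6 were taken as 1 genotype. Which alleles the control mice carry and which fatty acids were given is not stated in the sources used here.

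The B cell receptor is a membrane immunoglobulin joined to a pair of chains, CD79A and CD79B, whose cytoplasmic tails carry the tyrosine motifs that start the signal. Src-family kinases, LYN and BLK in B cells, phosphorylate these motifs, SYK docks there, and the adaptor BLNK brings BTK to phospholipase C gamma. CD72 is a B cell surface receptor that recruits the phosphatase SHP-1 (gene Ptpn6) and damps the signal. The same machinery works at the first steps of B cell development in the bone marrow through the pre-B cell receptor. Syk, Btk and Lyn also act below Fc receptors and integrins in monocytes, neutrophils, mast cells and platelets, and low expression of Blnk is known in macrophages. PAFAH1B3 is a catalytic subunit of an intracellular platelet-activating factor acetylhydrolase and has no established part in the receptor.

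Promoters of 5 of the 9 genes were found in a RefSeq-derived table on GRCm38.p6, the assembly called mm10 (250 bases before to 50 after the transcription start), and not those of Cd79b, Blk, Lyn and Pafah1b3. Those of 3 B-restricted members, which fell with genotype in both treatments, are shown with that of Btk, which was called lower under SCFA and not without it. Capitals mark matches, on either strand, to motifs of 4 factors or factor families of B cell development, each searched by its letters: EBF (CCCNNGGG), E-box of E2A (CAGGTG), octamer (ATGCAAAT) and ETS (AGGAAGT). The Cd79a window is chr7:24897247-24897546 (plus strand), that of Blnk chr19:40994172-40994471 (minus strand), that of Cd72 chr4:43454577-43454876 (minus strand) and that of Btk chrX:134583091-134583390 (minus strand), each written 5′ to 3′ along its gene.
Cd79a: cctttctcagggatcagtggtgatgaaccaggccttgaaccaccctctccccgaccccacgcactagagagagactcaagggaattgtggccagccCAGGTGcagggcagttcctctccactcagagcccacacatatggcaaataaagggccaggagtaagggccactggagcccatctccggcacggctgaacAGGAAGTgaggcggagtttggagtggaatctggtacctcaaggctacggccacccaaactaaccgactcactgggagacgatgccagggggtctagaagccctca
Blnk: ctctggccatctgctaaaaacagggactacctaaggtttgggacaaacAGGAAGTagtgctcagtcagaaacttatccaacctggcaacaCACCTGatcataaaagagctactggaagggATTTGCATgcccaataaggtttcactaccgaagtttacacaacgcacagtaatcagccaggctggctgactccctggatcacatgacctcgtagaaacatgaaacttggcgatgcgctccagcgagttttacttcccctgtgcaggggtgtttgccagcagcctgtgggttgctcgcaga
Cd72: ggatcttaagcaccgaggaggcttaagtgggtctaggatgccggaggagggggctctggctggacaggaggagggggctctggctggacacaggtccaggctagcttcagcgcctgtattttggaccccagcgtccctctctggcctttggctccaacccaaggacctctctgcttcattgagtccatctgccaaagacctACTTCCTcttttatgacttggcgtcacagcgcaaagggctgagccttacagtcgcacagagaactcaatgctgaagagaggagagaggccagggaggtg
Btk: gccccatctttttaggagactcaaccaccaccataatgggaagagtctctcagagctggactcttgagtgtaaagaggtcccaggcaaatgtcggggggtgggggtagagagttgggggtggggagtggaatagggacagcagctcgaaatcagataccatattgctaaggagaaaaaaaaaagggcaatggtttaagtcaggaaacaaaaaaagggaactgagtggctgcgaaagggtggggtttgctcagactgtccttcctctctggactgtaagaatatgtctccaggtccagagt
The Cd79a promoter held an E-box that begins at -154 from the start and an ETS match at -55. The Blnk promoter held an ETS match at -202, an E-box at -160 and the octamer, read on the other strand, at -130, and the Cd72 promoter held an ETS match at -49. None of the 4 motifs was found in the Btk window, and both Syk starts in the table held an E-box and no other match. Of 32851 promoters of the same length in the table, 20.2% held the E-box, 9.35% the ETS letters, 13.7% the EBF letters and 1.74% the octamer. No 2 of these matches overlapped, and they are descriptions of letters, chosen with the sequences in view. Sites that depart from these letters were not searched for, so a window without a match may still hold a site.

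Libraries held 16954355 to 20748995 counts, and 20101 to 22272 symbols had at least 1 count. Levels are given as CPM, counts scaled to a common library size after TMM normalization, and a library is named by group and replicate number. By their descriptions, untreated libraries belong to day 1 and SCFA libraries to day 30 of month 3. Treatment therefore cannot be told apart from date, whereas each genotype comparison lies within 1 date. Whether replicates are separate mice is not in the labels. The p-values set group differences only against the spread between these libraries, which may be technical. Stat3, whose counts do not separate the allele from the endogenous gene, had 274 to 438 CPM in control untreated, 267 to 322 in homozygous untreated, 224 to 249 in control SCFA and 319 to 398 in homozygous SCFA libraries.

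The cells are labelled progenitors, and the 7 stem and progenitor markers (Kit among them) summed to 167 to 232 CPM over all groups, against 39900 to 80690 CPM for 12 neutrophil genes and 4108 to 7450 CPM for 8 monocyte genes. The 9 markers of early B cells summed to 709 to 735 CPM in control untreated and 295 to 336 CPM in homozygous untreated libraries, and to 678 to 823 CPM in control SCFA and 59.6 to 69.7 CPM in homozygous SCFA libraries. Ebf1 and Pax5, which define the lineage and are named here with their values known, were detected in every group, at 8.03 to 8.61 CPM and 2.17 to 4.40 CPM in homozygous SCFA libraries, and Rag1 and Rag2 had 0 counts there. In bulk RNA, fewer cells of a type and less RNA per cell cannot be told apart, and this holds for each gene below.

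Cd79a and Cd79b, the paired signalling chains, were lower in homozygous than in control libraries with and without SCFA. Cd79a (ENSMUSG00000003379.7) lies on chromosome 7 at 24897381 to 24902197 (plus strand, mm10) and Cd79b (ENSMUSG00000040592.11) on chromosome 11 at 106311341 to 106314762 (minus strand). Cd79a was at 275, 328 and 296 CPM in control untreated 1, 2 and 3, and at 85.8, 84.1 and 95.7 CPM in homozygous untreated 1, 2 and 3. Under SCFA it was at 239, 225 and 208 CPM in control libraries and at 28.5, 34.8 and 37.3 CPM in homozygous libraries. The lowest control library of each treatment was more than double the highest homozygous library, and the homozygous SCFA libraries were the lowest of all 12. The difference was -1.76 ± 0.13 on the log2 scale without SCFA (SE, n = 3 a group, edgeR quasi-likelihood test, adjusted p = 1.49e-06) and -2.74 ± 0.14 under SCFA (adjusted p = 4.52e-09), that is 29.5% and 15% of the control mean. Cd79b went from 260, 314 and 282 CPM in control untreated to 88.9, 84.7 and 97.3 CPM in homozygous untreated libraries, and from 243, 249.7 and 216 CPM to 28.5, 30.6 and 29.98 CPM under SCFA. Its groups did not overlap either, with differences of -1.66 ± 0.12 (adjusted p = 1.18e-06) and -2.99 ± 0.12 (adjusted p = 1.16e-09). With exon lengths of 1457 and 1431 bases, the log2 ratio of Cd79a to Cd79b stayed within 0.32 of 0 in all 12 libraries.

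All 5 B-restricted members fell with genotype without SCFA, and all 5 under SCFA, against 8.13% and 8.47% of the 15674 tested genes that were called lower. Their median difference was -1.76 without SCFA and -3.68 under SCFA on the log2 scale, beside medians over all tested genes of -0.04 and -0.03. For each of the 5, every homozygous library lay below every control library of the same treatment, as was the case for 17.7% and 19.8% of all tested genes without and under SCFA. None of these 10 calls was lost under any of 20 alternatives, 12 of which leave out 1 library.

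Blnk, the adaptor, and Blk, the B-lineage Src kinase, fell by different amounts in the 2 treatments. Blnk (ENSMUSG00000061132.13, chromosome 19, 40928927 to 40994535, minus strand) was at 211, 162 and 172 CPM in control untreated and 70.2, 77.0 and 79.2 CPM in homozygous untreated libraries. Under SCFA it was at 200.4, 253 and 228 CPM in control and 16.9, 20.6 and 15.7 CPM in homozygous libraries. It had the smallest difference of the 5 B-restricted members without SCFA, -1.27 ± 0.14 (adjusted p = 7.27e-05), and the third largest under SCFA, -3.68 ± 0.16 (adjusted p = 1.5e-09). Blk (ENSMUSG00000014453.4, chromosome 14, 63372836 to 63417037, minus strand) had the fewest counts of the 9 genes, at 41.6, 59.8 and 52.0 CPM in control untreated and 12.8, 12.7 and 11.6 CPM in homozygous untreated libraries. With SCFA it was at 31.8, 32.2 and 29.6 CPM in control and 1.72, 3.22 and 1.82 CPM in homozygous libraries, the last resting on 32, 63 and 32 counts. These Blk counts were well above the floor of 3 counts but gave the widest errors, with differences of -2.05 ± 0.20 without SCFA (adjusted p = 2.56e-05) and -3.78 ± 0.23 under SCFA (adjusted p = 4.59e-08).

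Cd72, the inhibitory receptor, had the largest fall of the 9 genes under SCFA. The gene (ENSMUSG00000028459.11) lies on chromosome 4 at 43446462 to 43454628 on the minus strand. Cd72 was at 169, 204 and 193 CPM in control untreated and 55.4, 44.6 and 57.9 CPM in homozygous untreated libraries. Under SCFA it was at 151, 171 and 148 CPM in control and 9.77, 8.54 and 8.27 CPM in homozygous libraries. The homozygous SCFA libraries thus held 5.65% of the control SCFA level, and the homozygous untreated libraries 27.9% of theirs. The differences were -4.14 ± 0.15 (adjusted p = 2.59e-10) and -1.84 ± 0.14 (adjusted p = 1.49e-06). Exons of Cd72 overlap those of Tesk1 on the other strand, and whether counting used strand is not given in the sources used here. Tesk1 was counted at 2.25 to 7.30 CPM in the 12 libraries and was not called in either genotype comparison (adjusted p = 0.272 and 0.917).

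Pafah1b3, which is no receptor gene, followed the B-restricted members. The gene (ENSMUSG00000005447.12) lies on chromosome 7 at 25295049 to 25297986 (minus strand), 393 kb from Cd79a. It was at 54.9, 63.4 and 57.9 CPM in control untreated and 20.3, 16.4 and 16.6 CPM in homozygous untreated libraries. Under SCFA it was at 44.7, 51.6 and 45.0 CPM in control and 4.51, 5.11 and 4.56 CPM in homozygous libraries. No homozygous library reached a control level, and the differences were -1.72 ± 0.14 (adjusted p = 4.63e-06) and -3.31 ± 0.16 (adjusted p = 3.16e-09). Of the 11 tested genes between Cd79a and Pafah1b3, 7 fell and 0 rose without SCFA, with a median difference of -0.65 beside -0.04 over all tested genes. Under SCFA 4 rose and 0 fell, with a median of 0.56 beside -0.03, and 8.89% of all tested genes were called higher. The partners of Pafah1b3 in the acetylhydrolase complex were not called lower in either treatment. Pafah1b1, the regulatory subunit, was at 94.1 ± 23.2 CPM (SD, n = 3) in control untreated and 138 ± 9.90 CPM in homozygous untreated libraries (log2 difference 0.55 ± 0.16, adjusted p = 0.0387), a call lost in 13 of 20 alternatives, with an adjusted p of up to 0.173; each library other than control untreated 1 and homozygous SCFA 1 ended it when left out. Under SCFA its difference was -0.40 ± 0.16 (adjusted p = 0.111). Pafah1b2, the other catalytic subunit, differed by 0.37 ± 0.17 without SCFA (adjusted p = 0.148) and -0.14 ± 0.17 under SCFA (adjusted p = 0.614).

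**Figure D1:**
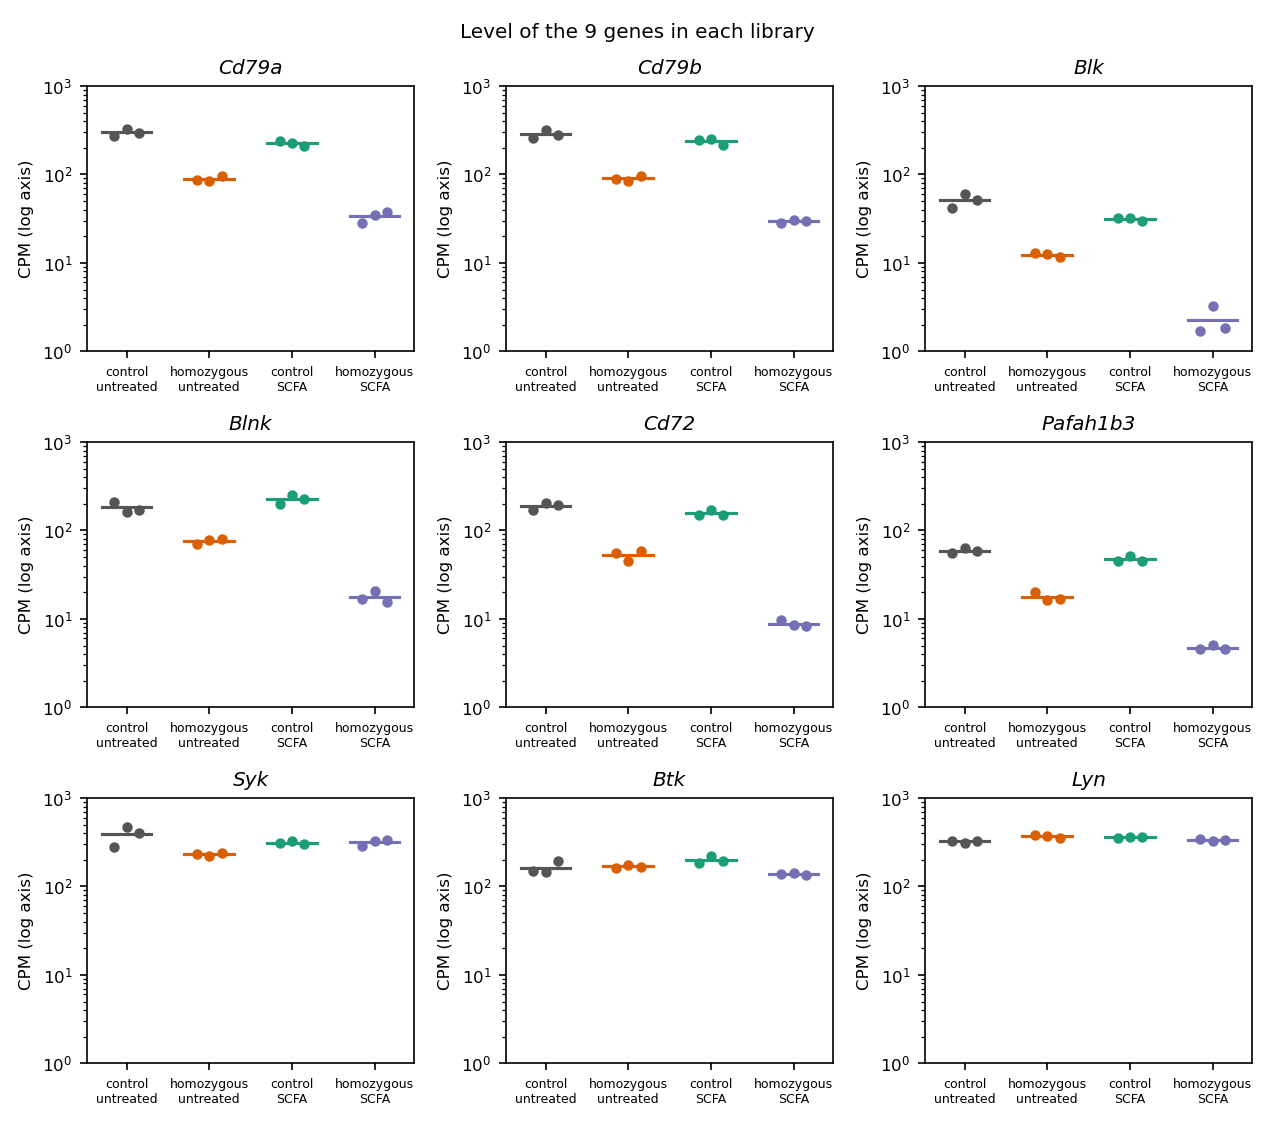
Level of each of the 9 genes in the 12 libraries, in CPM on a log axis, by group; points are libraries and bars are group means. The first 6 genes drop from control to homozygous and are lowest in the 3 homozygous SCFA libraries, whereas Syk, Btk and Lyn stay between 136 and 475 CPM.

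Syk, Btk and Lyn, the kinases that myeloid cells also use, showed none of these large falls. Lyn (ENSMUSG00000042228.14, chromosome 4, 3678115 to 3813122, plus strand) was at 327, 312 and 329 CPM in control untreated, 382, 369.9 and 357 CPM in homozygous untreated, 351, 358 and 367 CPM in control SCFA and 340, 328 and 335 CPM in homozygous SCFA libraries. Its 4 groups lay close together, although the genotypes did not overlap. Every homozygous library lay above every control library without SCFA and below every one under SCFA. Lyn was not called in either genotype comparison, with differences of 0.20 ± 0.09 without SCFA (adjusted p = 0.163) and -0.10 ± 0.09 under SCFA (adjusted p = 0.502). Of 20 alternatives, only DESeq2 called the first (adjusted p = 0.0217). Exons of Lyn overlap those of a long non-coding RNA on the other strand, which is not a symbol of the table.

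Btk (ENSMUSG00000031264.13, chromosome X, 134542336 to 134583570, minus strand), the Tec-family kinase recruited through Blnk, was at 151, 144 and 194 CPM in control untreated and 163, 173 and 168 CPM in homozygous untreated libraries. These groups overlapped, and the difference was 0.04 ± 0.13 (adjusted p = 0.847). Under SCFA Btk was at 182, 222 and 192 CPM in control and 139, 144 and 136 CPM in homozygous libraries, which did not overlap. It fell by 0.51 ± 0.13 on the log2 scale (adjusted p = 0.0138), to 70.3% of the control mean. The call was lost, with an adjusted p of up to 0.0867, when control SCFA 2, homozygous SCFA 2 or homozygous SCFA 3 was left out.

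Syk (ENSMUSG00000021457.14, chromosome 13, 52583173 to 52648792, plus strand) was called in the untreated comparison, where Btk was not. It was at 280.1, 475 and 406 CPM in control untreated and 231, 223 and 241 CPM in homozygous untreated libraries. Control untreated 1 lay far below the other control libraries, although above all 3 homozygous ones. Syk fell by 0.74 ± 0.16 on the log2 scale (adjusted p = 0.00795), a call that held under all 20 alternatives. The fall was 0.95 ± 0.11 without control untreated 1 (adjusted p = 9.08e-05) and 0.60 ± 0.14 without control untreated 2 (adjusted p = 0.0255), and the call was at the threshold with only the 2 groups in the fit (-0.709 ± 0.185, adjusted p of 0.05 after rounding). Under SCFA it was at 311, 325 and 303 CPM in control and 285, 325 and 334 CPM in homozygous libraries, which overlapped, and the difference was 0.01 ± 0.16 (adjusted p = 0.987). Of the 3 shared members, 1 was called lower in each treatment, Syk without SCFA and Btk under it, where 8.13% and 8.47% of all tested genes were. The call of Btk is the one lost when single libraries were left out. The median differences of the 3 genes were 0.04 and -0.10.

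**Figure D2:**
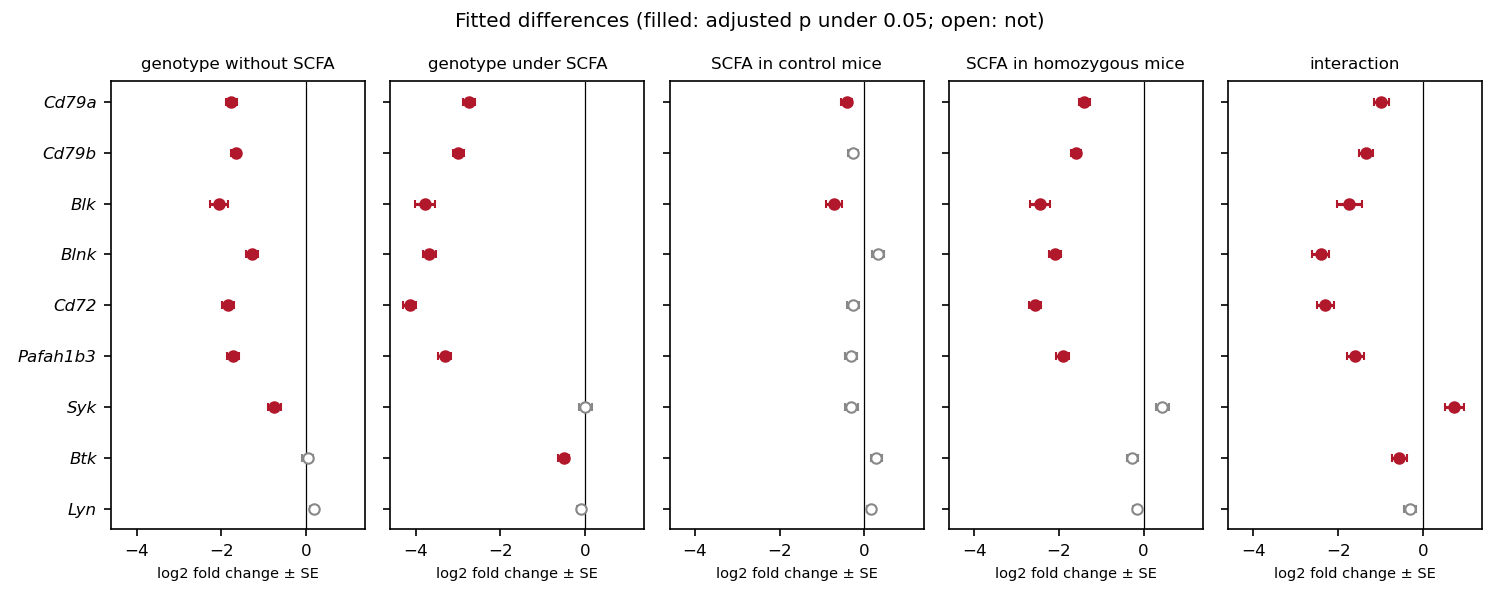
Fitted log2 differences of the 9 genes with their standard errors in the 4 comparisons of groups and for the interaction; filled points have an adjusted p under 0.05. The 5 B-restricted members and Pafah1b3 lie left of 0 in both genotype comparisons and in homozygous mice given SCFA, and within 0.72 of 0 in control mice given SCFA.

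Given SCFA, control mice changed little in these genes. Of the 9 genes, 2 fell and 0 rose, whereas 13% of tested genes were called lower and 1393 of 15674 higher. Cd79a fell by 0.42 ± 0.13 (adjusted p = 0.0300) and Blk by 0.71 ± 0.20 (adjusted p = 0.0211). Both calls were lost when control untreated 2, control untreated 3, control SCFA 2 or control SCFA 3 was left out, with adjusted p of up to 0.142 for Cd79a and 0.0927 for Blk, and that of Cd79a also with only the 2 groups in the fit. The others were not called: Cd79b differed by -0.27 ± 0.11 (adjusted p = 0.0985), Cd72 by -0.27 ± 0.13, Pafah1b3 by -0.32 ± 0.14 and Blnk by 0.32 ± 0.14. Without control untreated 1, 4 members fell and 1 rose, the added calls being Cd79b, Syk and Blnk.

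In homozygous mice, the 5 B-restricted members and Pafah1b3 fell further with SCFA, 6 of 9 genes against 5.61% of tested genes called lower. Cd79a fell to 37.9% of the untreated homozygous mean (log2 difference -1.40 ± 0.13, adjusted p = 6.53e-06) and Cd79b to 32.9% (-1.60 ± 0.12, adjusted p = 6.50e-07). Blnk fell to 23.5%, Blk to 18.2%, Cd72 to 16.8% and Pafah1b3 to 26.6%, and the SCFA libraries lay below the untreated ones without overlap for all 6, as was the case for 16.2% of all tested genes. Syk was higher in all 3 SCFA libraries but was not called (0.44 ± 0.16, adjusted p = 0.0890), although it was in 6 of 20 alternatives, among them DESeq2 and the fits without control untreated 1 or control untreated 2. Btk and Lyn differed by -0.27 ± 0.13 (adjusted p = 0.210) and -0.15 ± 0.09 (adjusted p = 0.372).

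The genotype difference under SCFA was tested directly against that without SCFA as an interaction. Of the 9 genes, 7 had a negative term that passed the test, against 11.6% of tested genes called lower, and 1 a positive one, against 13.6% called higher. Blnk had the largest, -2.41 ± 0.20 (adjusted p = 6.17e-06), followed by Cd72 at -2.30 ± 0.19 (adjusted p = 5.76e-06). It was smaller for Blk (-1.73 ± 0.30), Pafah1b3 (-1.59 ± 0.21) and Cd79b (-1.33 ± 0.16), and smallest of the 6 for Cd79a (-0.98 ± 0.18, adjusted p = 0.00274). These 6 calls held under every alternative run. Syk had a positive term, 0.75 ± 0.22 (adjusted p = 0.0236), which was lost without homozygous untreated 1, homozygous untreated 2, control SCFA 3, homozygous SCFA 2 or homozygous SCFA 3 (adjusted p of up to 0.0628). Btk had a negative one, -0.55 ± 0.18 (adjusted p = 0.0374), lost in 11 of 19 alternatives with adjusted p of up to 0.125, among them all fits without 1 library other than those without control untreated 3, control SCFA 1 or homozygous SCFA 1. Lyn had a term of -0.30 ± 0.13 (adjusted p = 0.112), which of 19 alternatives only DESeq2 called (adjusted p = 0.0137). Because treatment and date coincide, a difference of the genotype effect between the 2 dates cannot be told apart from one between treatments.

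Set against Lyn within each library, which cancels the scaling of libraries, the B-restricted members were lower in homozygous marrow too. The log2 ratio of Cd79a to Lyn (CPM + 0.5) was -0.25, 0.07 and -0.15 in control untreated and -2.15, -2.13 and -1.89 in homozygous untreated libraries. It was -0.55, -0.67 and -0.82 in control SCFA and -3.55, -3.22 and -3.15 in homozygous SCFA libraries. Cd79a drew about as many counts as Lyn in control untreated libraries and far fewer in homozygous libraries, with no overlap of the groups. The mean ratio of Cd72 to Lyn went from -0.78 to -2.81 without SCFA and from -1.19 to -5.16 under SCFA, a difference of -3.97 with a pooled SD of 0.11. All 6 genes had ratios to Lyn that did not overlap between genotypes in either treatment. Against Syk, which fell itself without SCFA, the drops were smaller there (Cd79a -1.05, Cd72 -1.13), and the ratio of Blnk to Syk overlapped between the genotypes. These ratios are descriptions, with no test, since the genes were chosen with results known.

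**Figure D3:**
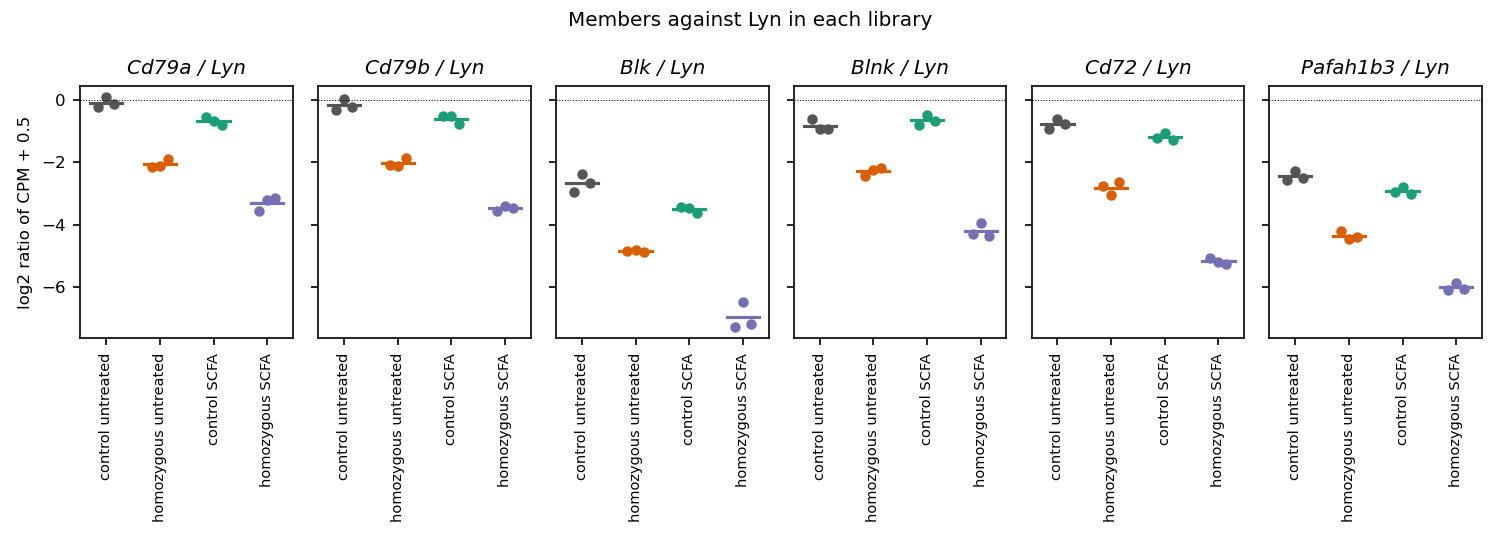
Log2 ratio of 6 genes to Lyn (CPM + 0.5) in each of the 12 libraries; bars are group means and the dotted line marks equal CPM. In each panel the homozygous libraries lie below the control libraries of the same treatment, and the 3 homozygous SCFA libraries lie lowest.

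The B-restricted members did not fall in proportion to each other. In control libraries the log2 ratio of Cd79a to Cd72 averaged 0.67 untreated and 0.52 under SCFA, and in homozygous untreated libraries 0.75. In homozygous SCFA libraries it was 1.5, 1.97 and 2.11, above every other library, so that Cd72 lost more than Cd79a. The ratio of Cd79a to Blnk differed in opposite directions, by -0.50 between genotypes without SCFA and by 0.92 under SCFA, without overlap in either.

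Per kilobase of exon, the order of the 9 genes differed between genotypes. In control untreated libraries Cd79a (206 ± 18.2 CPM per kb, SD, n = 3) and Cd79b (199 ± 19.2) stood first and overlapped each other. Lyn came next at 79.2 ± 2.23 CPM per kb, then Cd72 at 55.1 ± 5.22, Btk at 51.8 ± 8.45 and Syk at 41.3 ± 10.6, of which each overlapped its neighbour below Lyn. Blnk (30.3 ± 4.34) and Pafah1b3 (27.9 ± 2.03) overlapped, and Blk was last at 18.9 ± 3.38. Control SCFA libraries kept the receptor chains first, Cd79b at 165 ± 12.5 and Cd79a at 154 ± 10.8 CPM per kb, and Blk last. In homozygous untreated libraries Lyn led at 90.8 ± 3.08 CPM per kb, apart from Cd79b at 63.1 ± 4.47 and Cd79a at 60.8 ± 4.29. In homozygous SCFA libraries the 3 shared kinases held the first 3 places, Lyn at 82.0 ± 1.49, Btk at 44.3 ± 1.21 and Syk at 33.6 ± 2.78 CPM per kb, each apart from the next. The receptor chains followed at 23.0 ± 3.12 and 20.7 ± 0.74, then Blnk, Cd72 and Pafah1b3, which overlapped in turn at 2.96, 2.59 and 2.24, and Blk at 0.84 ± 0.31 CPM per kb.

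Genes were ranked by how closely their level followed that of 5 members over the 12 libraries, as the root mean square difference of centred log2(CPM + 0.5) among 9552 genes that averaged 5 CPM or more, leaving out gene models with no name and antigen receptor gene segments. Closest to Cd79a were Cd79b (0.116), Siglecg (0.132), an inhibitory lectin of B cells, and Chchd10 (0.153), a mitochondrial protein gene. Closest to Cd79b were Siglecg (0.097), Cd79a (0.116) and Pafah1b3 (0.141). Siglecg went from 172 to 58.3 CPM without SCFA and from 142 to 19.3 CPM under SCFA. The genes nearest to the shared kinases were others: Tk2, Il16 and Git2 for Syk (0.094 to 0.108), Celf1, Tnpo3 and Stard7 for Btk (0.086 to 0.099) and Ywhah, Cstf2t and Rest for Lyn (0.045 to 0.065). Among the 9 themselves, the 6 falling genes differed from each other by 0.116 to 0.554, and from Syk, Btk and Lyn by 1.13 to 1.73. These figures describe 12 libraries that share their groups, and a gene of small range is near to any other of small range.

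Around the 9 genes, 70 further genes of the pathway and its relatives were examined in 11 lists, and all 70 were tested. Without SCFA, 27 fell and 5 rose with genotype, and under SCFA 24 fell and 7 rose. Over all tested genes, 8.13% were called lower and 6.69% higher without SCFA, and 8.47% and 8.89% under SCFA, so the 5 and 7 that rose are near the background. The chains that bind antigen fell with the members: 5 of 6 antigen receptor chains without SCFA (median -1.08) and 6 of 6 under SCFA (median -2.62). Ighm, the heavy chain of IgM, fell from 1460 ± 128 to 521 ± 24.2 CPM without SCFA and from 1285 ± 11.2 to 215 ± 18.3 CPM under SCFA (-1.49 ± 0.11 and -2.58 ± 0.11, adjusted p = 1.18e-06 and 1.5e-09). Igkc, the kappa light chain, fell by 0.89 ± 0.11 and 1.80 ± 0.12. Ighd, the heavy chain of the IgD of mature B cells, differed by -0.16 ± 0.20 without SCFA (adjusted p = 0.601) and fell by 1.83 ± 0.20 under SCFA (adjusted p = 2.48e-05). This list also holds 3 lambda constant genes, and reads may have been divided between those of them that are alike in sequence.

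The pre-B cell receptor replaces the light chain with surrogate proteins in early B cells. Genes listed with it summed to a few CPM in homozygous SCFA libraries. These 4 genes summed to 156 to 167 CPM in control untreated and 56.8 to 70.3 CPM in homozygous untreated libraries. The sums were 131 to 142 CPM in control SCFA and 1.93 to 4.62 CPM in homozygous SCFA libraries. Much of the sum was Vpreb3, which averaged 105.5 CPM in control untreated libraries and is in the list without being a surrogate light chain. Without SCFA 3 of 4 fell, and under SCFA 4 of 4. Vpreb3 fell from 36.0 ± 3.64 CPM in homozygous untreated and 103 ± 4.51 CPM in control SCFA libraries to 2.84 ± 1.19 CPM in homozygous SCFA libraries. Igll1, the lambda5 chain, had 1274 counts over the control SCFA libraries and 3 over the homozygous SCFA libraries. Vpreb2 had 84 and 0 counts, which makes it at least 26.8-fold lower against a floor of 3 counts over the group, but reads can be divided between it and its near-identical copy Vpreb1. With the 2 genes at or under the floor set to it, the median of the list was -5.11 under SCFA, beside -0.03 over all tested genes. Without SCFA, Vpreb1 was called at -0.92 ± 0.28 (adjusted p = 0.0385), which 7 of 12 fits without 1 library lost (adjusted p of up to 0.167): those without control untreated 2 or 3, homozygous untreated 1 or 2, or control SCFA 1, 2 or 3. Igll1 (-0.95 ± 0.22, adjusted p = 0.0133) lost its call without homozygous untreated 1 or 2 (adjusted p of up to 0.0788).

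Of 2 coreceptors, 1 fell without SCFA and 0 under it. Cd81, a tetraspanin that many cell types make, fell to 62.7% without SCFA (adjusted p = 0.0201), a call lost with only the 2 groups in the fit and without control untreated 2, homozygous untreated 1 or homozygous untreated 2 (adjusted p of up to 0.0998), and differed by 0.23 ± 0.17 under SCFA (adjusted p = 0.390). Cr2, a complement receptor of mature B cells, was at 5.59 to 9.16 CPM in the group means and was not called in either. Of 7 inhibitory receptors, 1 rose and 2 fell without SCFA, and 1 rose and 3 fell under SCFA, with medians of -0.07 and -0.17. The abundant ones are also myeloid genes: Fcgr2b, the inhibitory Fc receptor, differed by 0.32 ± 0.12 and -0.01 ± 0.12 (adjusted p = 0.0829 and 0.979). The first difference was called in 2 of 20 alternatives, DESeq2 and limma-voom. Pirb rose under SCFA by 0.43 ± 0.11 (adjusted p = 0.0151), lost without control SCFA 3 (adjusted p = 0.0587). Lair1 rose without SCFA by 1.01 ± 0.23 (adjusted p = 0.0109), lost without homozygous untreated 2 (adjusted p = 0.0571). Siglecg, a B cell gene of this list, had differences of -1.56 and -2.88.

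The effectors that damp the signal are shared with myeloid cells. Of the 9 in this list, 4 fell and 1 rose without SCFA, against 1 and 1 under SCFA, with medians of -0.48 and 0.25. Ptpn6, the phosphatase SHP-1 that CD72 recruits, was at 766 ± 159 CPM in control untreated and 484 ± 51.0 CPM in homozygous untreated libraries (-0.66 ± 0.17, adjusted p = 0.0190). Under SCFA it was at 451 ± 51.5 and 613 ± 107 CPM (0.44 ± 0.16, adjusted p = 0.0803), and 7 of 20 alternatives called it higher. Dok3, an adaptor that damps receptor signals, fell by 0.96 ± 0.18 without SCFA (adjusted p = 0.00371) and differed by 0.25 ± 0.18 under SCFA. Inpp5d, the lipid phosphatase SHIP-1, fell by 0.63 ± 0.17 without SCFA (adjusted p = 0.0270) and differed by 0.29 ± 0.17 under SCFA. The untreated call of Ptpn6 was lost with only the 2 groups in the fit and without control untreated 2, homozygous untreated 1 or homozygous untreated 2 (adjusted p of up to 0.0963). That of Inpp5d was lost in the same fits and without control untreated 3 (adjusted p of up to 0.107).

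Of 14 adaptors and effectors, 4 fell and 1 rose in each treatment, with medians of -0.30 and 0.04. Pik3cd, the lymphoid and myeloid catalytic subunit of PI3 kinase, fell without SCFA by 0.73 ± 0.18 (adjusted p = 0.0197) and rose under SCFA by 0.59 ± 0.18 (adjusted p = 0.0397). The first call was lost in 5 of 20 alternatives, those with only the 2 groups in the fit and without control untreated 2 or 3 or homozygous untreated 1 or 2 (adjusted p of up to 0.0863). The second was lost in 6, those scaled to library totals and without control untreated 3, control SCFA 2 or 3 or homozygous SCFA 2 or 3 (adjusted p of up to 0.150). Pik3ap1, an adaptor of PI3 kinase, differed by -0.14 ± 0.13 without SCFA and fell by 0.68 ± 0.13 under SCFA (adjusted p = 0.00270). Vav1, a guanine exchange factor, was called in neither (-0.52 ± 0.18 and 0.47 ± 0.18). It gained a call in 5 of 20 alternatives without SCFA and in 6 of 20 under SCFA. Of 12 genes of the calcium and NF-kB arm, 5 fell and 0 rose without SCFA, and 4 fell and 2 rose under SCFA. Prkcb, a protein kinase C that links the receptor to NF-kB, was at 236 ± 17.2 and 175 ± 11.6 CPM without SCFA and at 229 ± 2.56 and 177 ± 12.4 CPM under it, in control and homozygous libraries. It fell by 0.43 ± 0.11 (adjusted p = 0.0193) and 0.37 ± 0.11 (adjusted p = 0.0276). The first call was lost with only the 2 groups in the fit and without control untreated 3 or homozygous untreated 1 or 2 (adjusted p of up to 0.0992). The second was lost in 9 of 20 alternatives (adjusted p of up to 0.175): without the filter on low counts and without control untreated 3, homozygous untreated 3 or any 1 of the 6 SCFA libraries. Bcl10, an adaptor on the way to NF-kB, differed by -0.10 ± 0.12 without SCFA and rose by 0.35 ± 0.12 under SCFA (adjusted p = 0.0484), a call lost in 13 of 20 alternatives (adjusted p of up to 0.142), among them the fits without homozygous untreated 1 or 2 or any 1 of the 6 SCFA libraries. The transcription factor gene Nfatc1 fell without SCFA by 0.62 ± 0.12 (adjusted p = 0.00623) and differed by 0.07 ± 0.12 under SCFA. Sema4d, a ligand of CD72, was at 157 ± 34.7 CPM in control untreated, 110.3 ± 4.39 CPM in homozygous untreated, 136 ± 5.22 CPM in control SCFA and 173 ± 12.03 CPM in homozygous SCFA libraries. Its fall without SCFA (-0.51 ± 0.14, adjusted p = 0.0301) was lost with only the 2 groups in the fit and without control untreated 2 or 3, homozygous untreated 1 or 2 or control SCFA 2 (adjusted p of up to 0.123). Under SCFA the difference of Sema4d was 0.35 ± 0.14 (adjusted p = 0.103), which 4 of 20 alternatives called.

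**Figure D4:**
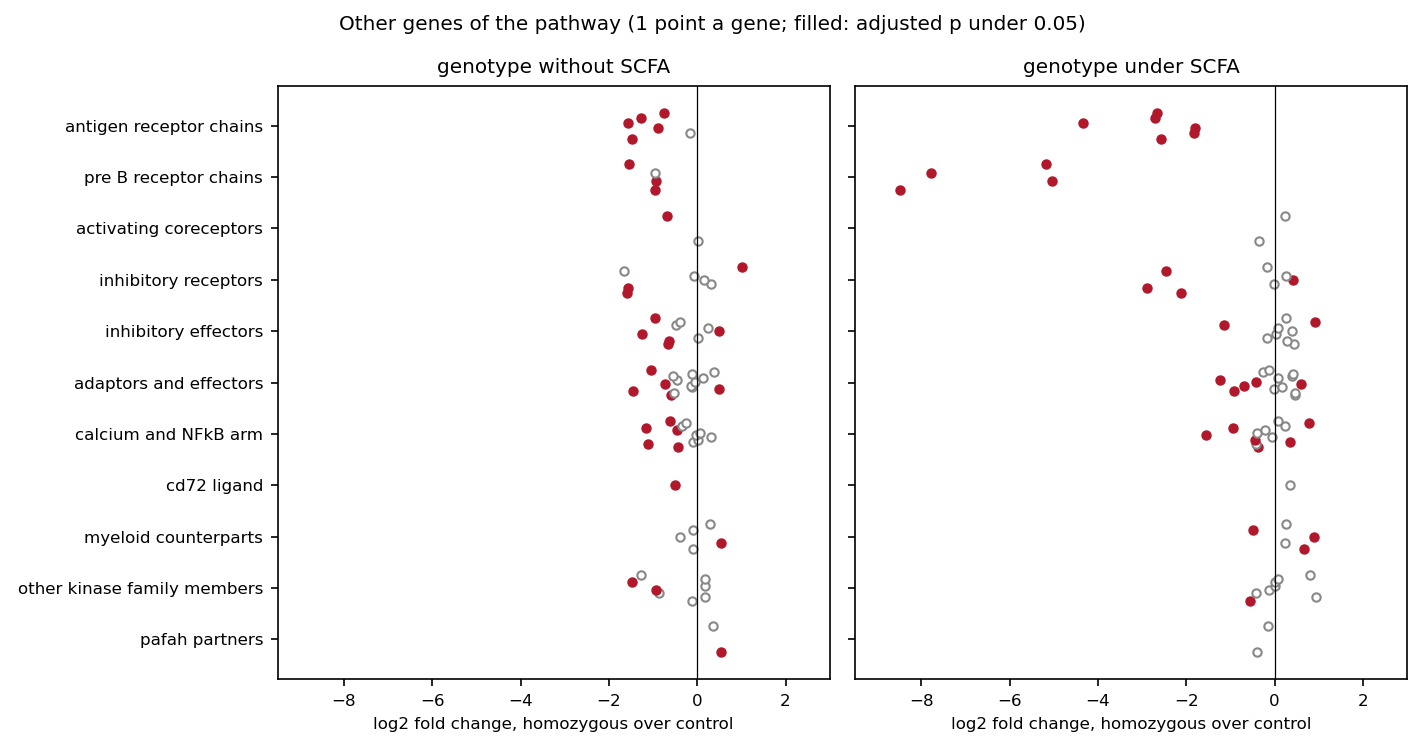
Log2 difference of homozygous over control for the 70 other genes of the pathway, by list, without SCFA (left) and under SCFA (right); each point is a gene and filled points have an adjusted p under 0.05. The antigen receptor and pre-B receptor chains lie left of 0 and spread further left under SCFA, while the genes of the other lists lie on both sides of 0.

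The myeloid counterparts of the members, the chains and kinases that serve Fc receptors in place of CD79, showed none of their large falls. Of 5 genes, 1 rose and 0 fell without SCFA, and 2 rose and 1 fell under SCFA, with medians of -0.10 and 0.25. Tyrobp (DAP12), a motif-bearing chain of myeloid receptors, was at 1127 ± 60.6 CPM in control untreated, 1052 ± 136 CPM in homozygous untreated, 1027 ± 56.4 CPM in control SCFA and 1639 ± 239 CPM in homozygous SCFA libraries, and rose under SCFA by 0.67 ± 0.12 (adjusted p = 0.00226). The Src kinase Fgr rose under SCFA by 0.89 ± 0.17 (adjusted p = 0.00277), whereas Lyn, of the same family, was not called. Fcer1g, the common gamma chain of Fc receptors, rose without SCFA by 0.53 ± 0.12 (adjusted p = 0.0116), lost with only the 2 groups in the fit and without homozygous untreated 1 or 2 (adjusted p of up to 0.0608), and differed by 0.24 ± 0.12 under SCFA. Lcp2, the adaptor SLP-76 that stands in for BLNK in myeloid cells, differed by 0.28 ± 0.11 and 0.25 ± 0.11 (adjusted p = 0.106 and 0.147). Tec, a relative of Btk, fell under SCFA by 0.49 ± 0.16 (adjusted p = 0.0426), lost in 9 of 20 alternatives (adjusted p of up to 0.217): without the filter on low counts, with the replicate block, and without control untreated 3, homozygous untreated 2, control SCFA 2 or 3, or homozygous SCFA 1, 2 or 3.

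Of 8 other members of the Src, Syk and Tec kinase families, 2 fell and 0 rose without SCFA, and 1 fell and 0 rose under SCFA, with medians of -0.50 and 0.02. Bmx, a Tec-family kinase, was called in neither (0.17 ± 0.15 and 0.07 ± 0.15). Fyn, a Src-family kinase, differed by -0.12 ± 0.14 without SCFA and fell by 0.55 ± 0.14 under SCFA (adjusted p = 0.0139), lost without the filter on low counts and without control SCFA 2, homozygous SCFA 2 or homozygous SCFA 3 (adjusted p of up to 0.082). Lck, the Src-family kinase of T cells, fell without SCFA by 0.94 ± 0.20 (adjusted p = 0.00948), lost without homozygous untreated 1 (adjusted p = 0.052), and differed by -0.12 ± 0.20 under SCFA.

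Markers of other cells also differed between the groups, some lists higher and some lower in homozygous libraries. As given above, 8.13% of all tested genes were called lower and 6.69% higher with genotype without SCFA, and 8.47% and 8.89% under SCFA. The 8 markers of mature B cells, a list holding Cd74 and H2-Ab1, which myeloid cells also make, summed to 2237 to 2444 CPM in control untreated and 1352 to 1603 CPM in homozygous untreated libraries, and to 2117 to 2187 CPM in control SCFA and 2193 to 2944 CPM in homozygous SCFA libraries. Of the 8, 4 fell and 0 rose without SCFA, and 4 fell and 2 rose under SCFA; the summed level under SCFA was higher in homozygous libraries although 4 of its genes were called lower. Macrophage markers summed to 502 to 526 CPM and 565 to 640.2 CPM without SCFA, and to 612 to 654 CPM and 808 to 836 CPM under SCFA. Of these 8, 2 rose and 3 fell without SCFA, with a median difference of -0.57, although the summed level was higher in homozygous libraries. Under SCFA 4 rose and 0 fell, with a median of 0.395. Megakaryocyte markers summed to 465 to 545 CPM and 484 to 602 CPM without SCFA, and to 658 to 735 CPM and 1005 to 1199 CPM under SCFA. The 8 monocyte markers summed to 4108 to 4748 CPM in control untreated and 6538 to 6897 CPM in homozygous untreated libraries, and to 5099 to 5717 CPM and 6662 to 7450 CPM under SCFA. With genotype, 5 of them rose and 0 fell without SCFA (median difference 0.609), and 3 rose and 0 fell under SCFA (median 0.357). The 12 neutrophil markers summed to 39900 to 57860 CPM in control untreated, 61120 to 80690 CPM in homozygous untreated, 60960 to 65290 CPM in control SCFA and 64130 to 74280 CPM in homozygous SCFA libraries. With genotype, 4 of the 12 rose and 1 fell without SCFA (median difference 0.133), and 7 rose and 0 fell under SCFA (median 0.485). From control untreated to control SCFA libraries, 4 of the 12 neutrophil markers rose and 6 fell, with a median difference of -0.36. Of the 15674 tested genes, 1393 rose and 2039 fell in that comparison. Plasmacytoid dendritic cell markers, 7 genes of a cell type that shares some B-lineage genes, summed to 937 to 1203 CPM in control untreated and 481 to 585 CPM in homozygous untreated libraries, and to 844 to 878 CPM and 245 to 318 CPM under SCFA. Erythroid markers summed to 18020 to 19790 CPM and 8647 to 11810 CPM without SCFA, and to 11280 to 13280 CPM and 2289 to 2719 CPM under SCFA. Among 10 T cell markers, summing to 56.0 to 109.6 CPM over the 4 groups, 2 fell without SCFA and 3 under SCFA. Of the markers taken as defining a cell type, Ncr1 of natural killer cells had 0 counts in homozygous untreated libraries and the others were detected in every group. The part of these populations in the levels of Syk, Btk and Lyn was not tested.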

How the data were processed

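RNA was sequenced from 12 bone marrow libraries. Per the submitters' processing notes, STAR aligned the reads to mm10 and featureCounts counted them. Versions, annotation and strand use were not given in the sources used here. What the authors deposited are raw whole-number counts for each symbol in each library. Total counts per library limit precision, and a gene with 0 counts may have up to 3.

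Counts were tested with edgeR's quasi-likelihood test (edgeR 4.0.16 in R 4.3.3) on the 15674 genes kept by filterByExpr, with TMM scaling, in 1 fit of 4 group means over 12 libraries, with Benjamini-Hochberg adjusted p under 0.05 as the call. Levels are CPM computed here on TMM-scaled totals, and per kilobase of GENCODE M21 exon length; 96.4% of symbols matched that annotation. The code was tested on simulated counts. No replicates were merged, since all pairs differed by more than counting error (chi-square statistic over its degrees of freedom, 11.6 to 84.8).

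The members, gene lists and motifs were chosen with earlier results of these data known, so counts over them are descriptions. The text names the 9 genes, the 3 genes of highest mean CPM in each pathway list, the myeloid counterparts and acetylhydrolase partners, and the 3 genes nearest in pattern to 5 members. A few genes of the pathway are not reported here. Vpreb2, Rag1, Rag2, Ebf1, Pax5, Ncr1, Stat3 and Tesk1 are named beyond this rule, with values known. Of the 13 marker lists, those for early and mature B, macrophage, megakaryocyte, monocyte, neutrophil, plasmacytoid dendritic, erythroid, T and progenitor cells are given above. The summed levels of the others over the 4 groups were 448 to 616 CPM for plasma cells, 1313 to 2451 CPM for basophils, mast cells and eosinophils, and 71.1 to 94.1 CPM for natural killer cells.

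Alternatives were RLE and upper-quartile factors, library totals, DESeq2 1.42.0, limma-voom (limma 3.58.1) with quality weights, no filter on low counts, a fit of the 2 groups alone, a block for the replicate number, each library left out, and pseudocounts of 0 and 2 CPM for ratios. Python 3.11.15 with pandas 2.3.3 and matplotlib 3.10.9 made tables and figures.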

Additional observations from a re-analysis of the deposited data

Results flagged for a closer look

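For 8 of the 9 genes, the genotype difference under SCFA departed from that without SCFA by the interaction term of the edgeR fit. Over all tested genes, 11.6% had a negative and 13.6% a positive term that was called. The term was -0.98 for Cd79a, -1.33 for Cd79b, -1.73 for Blk, -2.41 for Blnk, -2.30 for Cd72 and -1.59 for Pafah1b3, all meaning a larger fall under SCFA. It was 0.746 for Syk, which was called lower without SCFA and not under it, and -0.551 for Btk, which was called lower under SCFA and not without it. The terms of Syk and Btk were each lost when single libraries were left out, as given with their values above. Treatment and date coincide and cannot be told apart.

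The same test picked out 19 other named genes of the pathway. Of all 70 further genes, 16 had a negative and 16 a positive term that was called, against 11.6% and 13.6% of all tested genes. A larger fall under SCFA was seen for the immunoglobulin chains Ighm (-1.09), Igkc (-0.901) and Ighd (-1.67). The same held for Vpreb3 (-3.63), Igll1 (-7.53) and Vpreb1 (-4.12) of the pre-B receptor list. The fitted size for Igll1 rests on 3 counts in homozygous SCFA libraries and depends on the prior count. The term of Pik3ap1 (-0.540) was lost in 12 of 19 alternatives, with an adjusted p of up to 0.143: when scaled to library totals, without the filter on low counts, with limma-voom, and without control untreated 1 or 2, homozygous untreated 2 or 3, control SCFA 1 or 3, or any of homozygous SCFA 1, 2 and 3. Lair1 (-1.19) and Pafah1b1 (-0.946) were higher in homozygous libraries without SCFA and had a negative value under it. The term of Lair1 was lost without homozygous untreated 2, control SCFA 2, homozygous SCFA 2 or homozygous SCFA 3 (adjusted p of up to 0.0551).

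The term was positive for 10 named genes, each with a fitted genotype difference below 0 without SCFA and above 0 under it: Cd81 (0.904), Ptpn6 (1.11), Inpp5d (0.918), Dok3 (1.21), Vav1 (0.984), Pik3cd (1.32), Nfatc1 (0.693), Sema4d (0.867), Tyrobp (0.774) and Fgr (1.28). These 10 terms kept their call under all 19 alternatives run.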

How the results depend on the processing

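No called value of the 9 genes changed sign under any alternative. Values near 0 that were not called did, such as Btk without SCFA (-0.107 to 0.164) and Syk under SCFA (-0.0248 to 0.06). Of 891 values of single members, 848 kept their side of the threshold, 28 lost and 15 gained a call. Of 3069 values of single pathway genes, 173 lost and 83 gained a call, and the gained calls are not all named above. The genotype calls of the B-restricted members and Pafah1b3 held under all 20 alternatives, and their interaction terms under all 19.

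The number of members that rose without SCFA was 1 with DESeq2 (Lyn). For SCFA in control mice, limma-voom called 1 member higher and 4 lower, and the fit of only the 2 groups called 1 lower. For SCFA in homozygous mice, 1 member (Syk) rose without the filter on low counts, with DESeq2, with limma-voom and with only the 2 groups. Among all genes, limma-voom called 3922 (genotype without SCFA), 4762 (genotype under SCFA) and 2988 (SCFA in homozygous mice), against 2323, 2722 and 1501. The fit of only the 2 groups called 914 for genotype without SCFA and 2035 for SCFA in control mice, against 3432 in the latter, and DESeq2 called 2276 for SCFA in homozygous mice. The causes were not tested.

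Leaving out 1 library gave 770 (without homozygous untreated 2) to 4333 (without control untreated 1) genes called for genotype without SCFA, 1431 to 3282 for genotype under SCFA, 613 to 5090 for SCFA in control mice, 743 to 1998 for SCFA in homozygous mice and 2455 to 5379 for the interaction. Members that rose ranged from 0 to 1 for SCFA in either genotype and for the interaction, and members that fell from 0 to 4 for SCFA in control mice.

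Scaled to library totals, the median difference of all genes was -0.18 for genotype without SCFA against -0.04, and the share of calls that were higher went from 45.1% to 23.2%. That share went from 40.6% to 27.4% for SCFA in control mice and from 54.0% to 64.3% for the interaction. Same-numbered replicates did not deviate together (correlations -0.114 to 0.0432). Whether the numbers pair samples is not in the labels, and these correlations cannot settle it. With the replicate block, 2067, 2447, 3249, 1282 and 3715 genes were called, and the counts of members were those of the fit without it. Each genotype difference of a log2 ratio was also computed with pseudocounts of 0 and 2 CPM. In 20 of these 112 checks it moved by more than its pooled SD, that of Blk to Lyn under SCFA from -3.46 to -2.88 with 2 CPM.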
